A study of Drosophila melanogaster with 6 samples.

Results

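The genes described here are cytosolic glutathione transferases (Gst genes) of the fly. They were chosen as every gene of the count table whose FlyBase symbol begins with GstD, GstE, GstO, GstS or GstT and a number. Zeta genes and the Omega-type gene se do not match this symbol rule and are described further below. The rule found 33 of 17753 listed genes, and no measured value entered it. They comprise 11 Delta, 14 Epsilon, 3 Omega, 1 Sigma and 4 Theta genes. All 33 had enough counts to be tested, so none was lost to the filter on low counts.

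Whole heads of adult Drosophila melanogaster, 50 per library, were compared between Kdm3 KO flies and the wBerlin control stock, with 3 biological replicates of each. Kdm3 encodes a JmjC-domain histone lysine demethylase. Flies of both groups were taken at 2 to 7 days after eclosion and had been reared at 25 °C and 70% relative humidity on cornmeal food. No source used here tells how the allele was made, the sex of the flies or whether each replicate was its own culture. The p-values rest on the spread among these libraries alone, which may be technical.

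Glutathione transferases join the tripeptide glutathione to electrophilic compounds, among them insecticides and the aldehydes that lipid peroxidation leaves behind, which makes the products soluble and ready for export. In flies the Delta and Epsilon classes are insect-expanded families known from insecticide resistance, while Omega, Sigma and Theta enzymes also occur in other animals. The transcription factor CncC, the fly relative of Nrf2, is known to induce several of the Delta and Epsilon genes.

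Libraries held 19850981 to 28237382 counts, so that 3 counts, the level that a count of 0 allows, corresponded to 0.108 to 0.138 CPM (counts relative to library size, scaled by TMM throughout). That limit covers counting error only. Kdm3 itself was at 3.86, 0.642 and 0.710 CPM in Kdm3 KO replicates 1, 2 and 3, against 32.5, 30.1 and 28.7 CPM in wBerlin replicates 1, 2 and 3. The neuronal genes elav, nSyb, Syt1 and brp were all detected, with a summed level of 2515 to 2804 CPM in Kdm3 KO and 2598 to 3239 CPM in wBerlin. None of these 4 genes was called, nor was any of the 4 tested glial, 4 hemocyte and 3 Malpighian tubule markers. All 111 listed genes of chromosome 4 had 0 counts in every library, the glial gene Gat and the fat body gene apolpp among them, so a 0 there is no measure of the tissue. Of the libraries, 2 stood apart in tissue markers that matter below. In Kdm3 KO replicate 2 the summed midgut list was 114 CPM, against 19.9 and 19.8 CPM in the other Kdm3 KO libraries and 14.7 to 21.9 CPM in wBerlin. In wBerlin replicate 1 the summed antennal list was 55.3 CPM, close to the 24.2 to 44.3 CPM of Kdm3 KO and far from the 326 and 446 CPM of wBerlin replicates 2 and 3. The summed fat body list differed with genotype, at 25269, 19531 and 23795 CPM in Kdm3 KO, against 14945, 13085 and 9058 CPM in wBerlin. It includes yolk protein genes, and the sex of the flies is unknown here, so the part of sex in this sum was not tested. Of the 9 matched genes of that list 7 were tested, of which 2 rose, Fbp2 and Yp3, and none fell. Over all tested genes 2.15% were called higher and 0.917% lower. Pepck1, on arm 2R, was at 0 in every library. In whole heads, fewer cells of a type and less RNA per cell cannot be told apart.

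Most of the family was at similar levels in both genotypes, and 2 genes stood out in opposite directions. GstD3 rose 4.45-fold in Kdm3 KO heads and GstE4 fell to 0.136 of the wBerlin level, and the other 31 genes did not pass the test. A called gene is one with an adjusted p under 0.05 by edgeR's quasi-likelihood test with Benjamini-Hochberg adjustment over all 14069 tested genes. The share called was 6.06% in the family (1 higher, 1 lower) and 3.07% over all tested genes (2.15% higher and 0.917% lower). The family's median log2 fold change of Kdm3 KO over wBerlin was 0.07, beside 0.04 over all tested genes, and 17 genes were above 0 (51.5%, against 56.4% of all tested genes) and 16 below. Without Kdm3 KO replicate 2 the family had 3 higher genes (GstD3, GstE12 and GstT1) and 0 lower ones. With wBerlin replicate 1 left out as well it had these 3 higher and GstE4, GstD8 and GstD11 lower, a fit of 4 libraries chosen after the data were seen. Over all tested genes, too, each of these fits called more genes higher than the fit of all libraries. The fit of 4 libraries also called more of them lower. The added Gst calls are therefore not shown to be particular to the family, and the all-gene counts are given in the closing section.

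Below that threshold, differences of modest size were common. The fold change of 27 genes lay between 1.5-fold lower and 1.5-fold higher, and the exceptions were GstD3, GstD6, GstD8, GstD11, GstE4 and GstS1. The 2 groups of libraries did not overlap for 11 genes (33.3%), against 18.7% of all tested genes. Of these 11, 6 were higher (background 9.35%) and 5 lower (background 9.33%). At an unadjusted p under 0.05 there were 5 higher and 6 lower genes, again 33.3%, against 14.6% of all tested genes (7.14% higher and 7.51% lower).

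**Figure D1:**
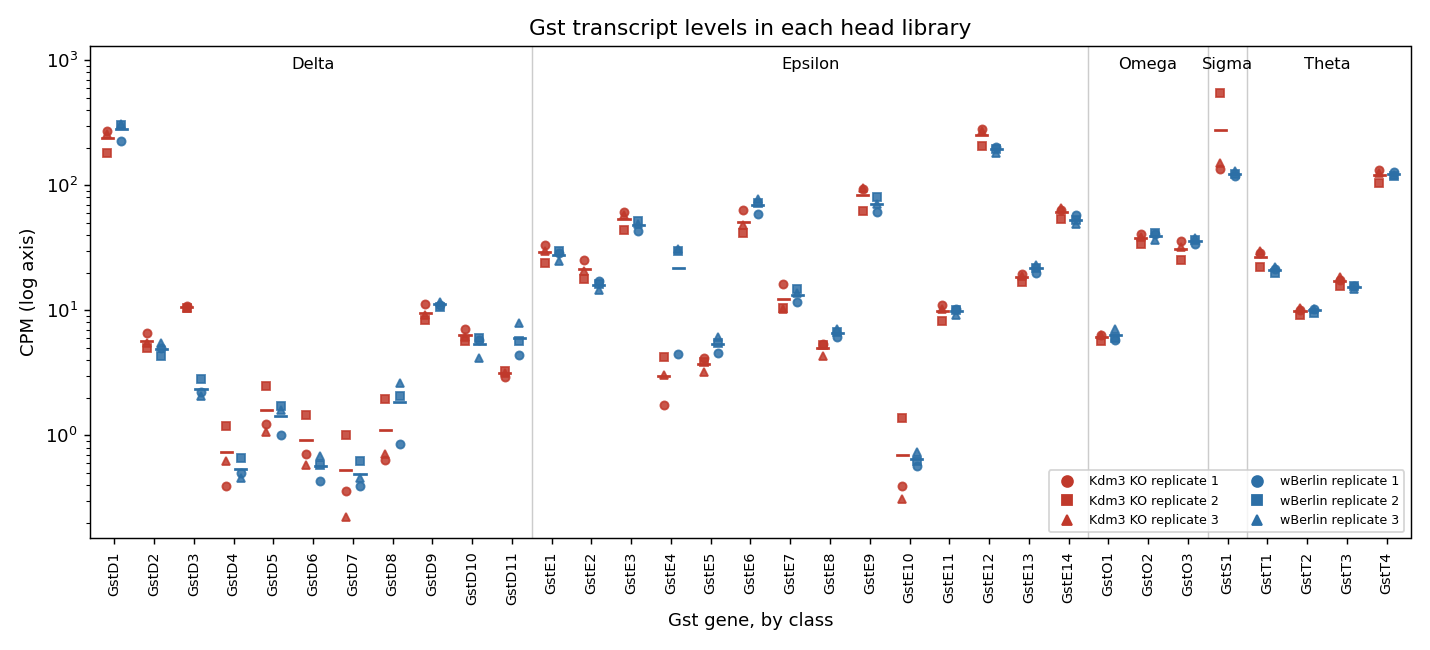
Level of each Gst gene in CPM on a log axis, with Kdm3 KO libraries (red) left of wBerlin libraries (blue), replicates 1, 2 and 3 as circle, square and triangle, and a bar at each group mean. GstD3 is high in all 3 Kdm3 KO libraries, GstE4 is low in them and in wBerlin replicate 1, and GstS1 is high in Kdm3 KO replicate 2 alone.

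Levels between genes were compared per kilobase of exon. GstD1 led the family, at 281 ± 56.4 CPM per kb in Kdm3 KO and 331 ± 53.9 CPM per kb in wBerlin (SD, n = 3 each). GstE12 followed, at 181 ± 29.0 CPM per kb in Kdm3 KO and 138 ± 7.38 CPM per kb in wBerlin. In wBerlin, GstT4, GstE6 and GstE9 came next at 100.4 ± 3.85, 92.8 ± 12.9 and 89.97 ± 12.7 CPM per kb, and these 3 neighbours in the order differed by less than their spread. At the other end, GstD4 to GstD8 and GstE10 were at or below 2.29 CPM per kb in both genotypes. The Epsilon class supplied 47.4% ± 4.78 of the family's summed CPM per kb in Kdm3 KO and 47.4% ± 1.06 in wBerlin (SD, n = 3 each), and the Delta class 26.0% ± 2.97 in Kdm3 KO and 30.5% ± 2.42 in wBerlin. GstS1 is described with its libraries below, and the Omega and Theta classes supplied 4.97% and 11.8% in Kdm3 KO, against 5.77% and 11.9% in wBerlin. Exons of 7 Gst genes overlap a gene on the opposite strand, by 6 to 223 bases, and no source used here tells whether counting used strand.

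The Delta class forms 1 cluster of 11 genes over 20.8 kb of arm 3R (12364776 to 12385624, BDGP6), and GstD3 (FBgn0010039, 12373068 to 12373813) lies in its middle. GstD3 was at 10.8, 10.5 and 10.5 CPM in Kdm3 KO replicates 1, 2 and 3, against 2.23, 2.81 and 2.06 CPM in wBerlin replicates 1, 2 and 3. The 3 Kdm3 KO libraries were almost level with one another and all far above wBerlin. The raw counts behind these values were 271, 228 and 236 in Kdm3 KO and 62, 77 and 45 in wBerlin. The log2 fold change was 2.15 (SE 0.16, adjusted p = 0.000238), and GstD3 was called in all 15 alternative fits, at 4.06- to 4.78-fold.

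Its immediate neighbours did not share the difference. GstD2, whose start lies 1.10 kb before that of GstD3 on the same strand, was at 6.60, 5.00 and 5.46 CPM in Kdm3 KO, against 5.03, 4.31 and 5.45 CPM in wBerlin. GstD4, whose start lies 1.03 kb after it, was at 0.398, 1.19 and 0.621 CPM in Kdm3 KO, against 0.503, 0.657 and 0.458 CPM in wBerlin. In both genes the libraries of the genotypes overlapped. The log2 fold change was 0.21 (SE 0.17) for GstD2 and 0.43 (SE 0.50) for GstD4, neither called (adjusted p = 0.655 and 0.771 by edgeR).

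GstD1, the best-studied Delta enzyme, which removes chlorine from DDT and is a standard reporter of oxidative stress, was at 269, 182 and 259 CPM in Kdm3 KO, against 227, 301 and 310 CPM in wBerlin. The libraries overlapped, and the fold change was 0.847 with an approximate 95% interval, from the SE, of 0.673 to 1.07. GstD9 was at 11.3, 8.35 and 9.19 CPM in Kdm3 KO, against 11.1, 10.7 and 11.7 CPM in wBerlin, with overlapping libraries too. The other Delta genes, GstD5, GstD6, GstD7, GstD8 and GstD10, had log2 fold changes between −0.74 and 0.70 and overlapping libraries. The highest of these was that of GstD6 (SE 0.47, edgeR adjusted p = 0.592). GstD11, at the far end of the cluster, was lower without passing the test, at 2.94, 3.30 and 3.15 CPM in Kdm3 KO, against 4.38, 5.69 and 7.92 CPM in wBerlin. No Kdm3 KO library of GstD11 reached the lowest wBerlin library. Its log2 fold change was −0.93 (SE 0.22, edgeR adjusted p = 0.0619), and it was called as lower in 4 of 14 alternative fits, among them DESeq2 (adjusted p = 0.0129) and the fit without wBerlin replicate 1 (0.0264).

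The Delta cluster begins 2.84 Mb from the end of Kdm3 on the same arm. Between them 379 genes were tested, of which 12 rose and 9 fell (5.54% called, against 3.07% of all tested genes). Sequence linked to the Kdm3 allele and loss of Kdm3 cannot be told apart for genes of this stretch or of the Delta cluster, GstD3 included. Whether the genotypes also differ in sequence elsewhere in the genome is unknown here. On any arm, such a difference could not be told apart from loss of Kdm3 either. Within 50 kb of the cluster 28 other genes were tested. The cytochrome P450 gene Cyp9f3 fell to 0.459 of the wBerlin level (adjusted p = 0.00353 by edgeR) and was the single one called. Delta genes are close copies of one another, and how reads that match several copies were counted is unknown here, so the split of counts between them is uncertain.

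**Figure D2:**
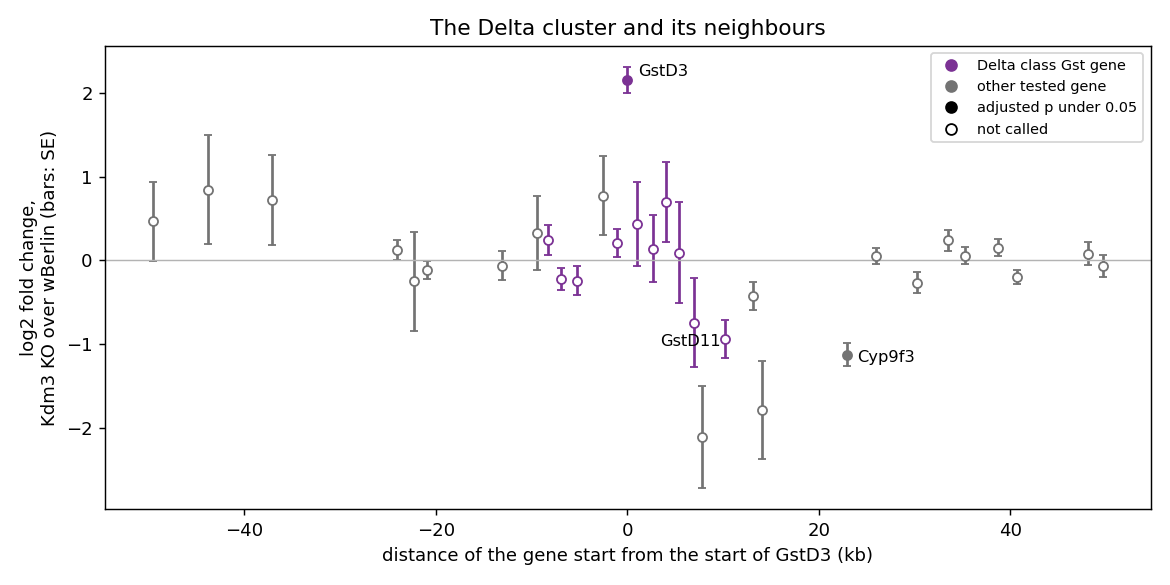
Log2 fold change of Kdm3 KO over wBerlin (points, bars are the SE) against the distance of each tested gene's start from the start of GstD3 in kb, for Delta class genes (purple) and other genes (grey), filled where the adjusted p is under 0.05. GstD3 stands at 2.15 between GstD2 at 0.21 and GstD4 at 0.43, and Cyp9f3 at −1.12 is the other filled point.

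Of the Epsilon class, 10 genes form a cluster over 13.2 kb of arm 2R (18396638 to 18409835), and GstE11, GstE12, GstE13 and GstE14 lie apart from it on the same arm. GstE4 (FBgn0063496, 18403248 to 18404086) was at 1.75, 4.22 and 3.02 CPM in Kdm3 KO replicates 1, 2 and 3, against 4.49, 29.9 and 31.2 CPM in wBerlin replicates 1, 2 and 3. Thus wBerlin replicate 1 lay beside the Kdm3 KO libraries and not with the rest of its own group. The log2 fold change was −2.87 (SE 0.63, edgeR adjusted p = 0.0427). Without wBerlin replicate 1 it was −3.41 (adjusted p = 0.00122). The call was held in 6 of 15 alternative fits and ended without any of the other 5 libraries (adjusted p 0.0850 to 0.155) and by limma voom (0.337).

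The antennal list moved with GstE4 across the libraries. It holds 10 genes, namely 6 odorant-binding protein genes, Os-C, a10, a5 and the odorant co-receptor gene Orco, and no member was at 0 in any library. Of the 10, 7 fell and none rose (background 0.917% lower and 2.15% higher). The list's summed level gave the 6 libraries the same order as GstE4 did, from Kdm3 KO replicate 1 (24.2 CPM) to wBerlin replicate 3 (446 CPM). Expressed as a percent of that sum, GstE4 was at 7.22, 9.52 and 7.42 in Kdm3 KO replicates 1, 2 and 3, against 8.11, 9.18 and 7.00 in wBerlin. This percentage was chosen after GstE4 was seen to follow the list, so it restates that order and is no independent evidence, and the part of antennal tissue in the GstE4 difference was not tested. The order is not particular to GstE4. GstD11 gave the 6 libraries the same order, over a range of 2.94 to 7.92 CPM. The part of antennal tissue in the GstD11 difference was not tested either. The antennal genes did not all move by the same factor, with log2 fold changes from −5.93 for Obp83b to −0.84 for lush. Acsx2, also picked after its values were seen, had the same split within wBerlin, at 3.02, 4.59 and 3.46 CPM in Kdm3 KO, against 4.88, 45.7 and 52.0 CPM in wBerlin.

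The genes on either side of GstE4 in the cluster showed no such split in wBerlin. GstE3 was at 61.1, 43.6 and 57.5 CPM in Kdm3 KO, against 43.0, 52.3 and 49.1 CPM in wBerlin. GstE5 was at 4.17, 3.85 and 3.20 CPM in Kdm3 KO, against 4.60, 5.44 and 6.13 CPM in wBerlin. GstE5 was lower in all 3 Kdm3 KO libraries without passing the test (log2 fold change −0.52, SE 0.18, edgeR adjusted p = 0.194). The same held for GstE8 (−0.40, SE 0.15, adjusted p = 0.229), whereas the libraries of GstE6 overlapped (−0.45, SE 0.16, adjusted p = 0.202). GstE2 pointed the other way, at 25.4, 17.8 and 20.5 CPM in Kdm3 KO, against 17.1, 16.2 and 14.5 CPM in wBerlin (0.41, SE 0.14, adjusted p = 0.184). GstE9, the last gene of the cluster, was at 93.7, 62.2 and 95.2 CPM in Kdm3 KO, against 61.2, 81.2 and 70.2 CPM in wBerlin, with overlapping libraries. GstE1, GstE7 and GstE11 had log2 fold changes between −0.12 and 0.07. Adjacent Epsilon genes on the same strand thus had log2 fold changes of either sign.

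The Epsilon cluster lies directly beside a run of Bomanin genes, which encode peptides induced by the Toll immune pathway. Within 50 kb of the cluster 22 other genes were tested, of which 11 rose and none fell (background 2.15% higher and 0.917% lower). They were 10 Bomanin genes and the chitinase-like gene Idgf5, all higher by 2.42- to 5.43-fold. BomS6, 6.01 kb from the cluster, was at 67.6 ± 16.9 CPM in Kdm3 KO and 18.3 ± 2.15 CPM in wBerlin (SD, n = 3 each). Idgf5, 1.36 kb from it, was at 51.4 ± 9.85 CPM in Kdm3 KO and 21.2 ± 3.98 CPM in wBerlin. GstE10 and GstE1, the cluster's first genes on the Bomanin side, did not pass the test, at 0.11 (SE 0.58) and 0.07 (SE 0.13) on the log2 scale. These 2 genes share 20 exonic bases on opposite strands.

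GstE12, the most abundant Epsilon gene, was at 281, 207 and 272 CPM in Kdm3 KO, against 203, 195 and 183 CPM in wBerlin. All 3 Kdm3 KO libraries were above all wBerlin libraries, replicate 2 by a small margin. The log2 fold change was 0.39 (SE 0.13, edgeR adjusted p = 0.166), and the gene was called in 6 of 15 alternative fits, among them the fit without Kdm3 KO replicate 2 (0.52, adjusted p = 0.00999). The summed fat body list, yolk protein genes included, was likewise higher in every Kdm3 KO library. Its part in this difference was not tested. GstE14, called noppera-bo and needed in the larval prothoracic gland for ecdysteroid synthesis, was at 63.6, 53.3 and 65.5 CPM in Kdm3 KO, against 57.6, 52.6 and 49.2 CPM in wBerlin. GstE14 libraries overlapped, and its fold change of 1.14 had an approximate 95% interval of 0.988 to 1.32. GstE13 was at 19.5, 16.8 and 18.7 CPM in Kdm3 KO, against 20.004, 21.9 and 23.1 CPM in wBerlin. Its libraries did not overlap and its log2 fold change was −0.24 (SE 0.11, edgeR adjusted p = 0.336).

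Around the single genes calls were fewer than beside the Epsilon cluster. Over all tested genes 2.15% were called higher and 0.917% lower. Within 50 kb of GstE14 2 of 26 tested genes rose (CG4716 and CG10799), within 50 kb of GstE11 1 of 7 (Pepck2, at 3.05-fold), and within 50 kb of GstE12 Dll fell and the other 17 were not called. Near GstS1 4 of 23 rose, which were fat-spondin, Gbp2 and the amylases Amy-p and Amy-d at 9.57- and 4.97-fold. Beside the Omega cluster CG6638 rose among 12, beside GstT4 Neto rose among 13, and none of 34, 19 and 14 genes was called near GstE13, the GstT1 and GstT2 pair, and GstT3. GstE14, GstE11, GstE12, GstS1 and GstT4 were themselves not called.

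**Figure D3:**
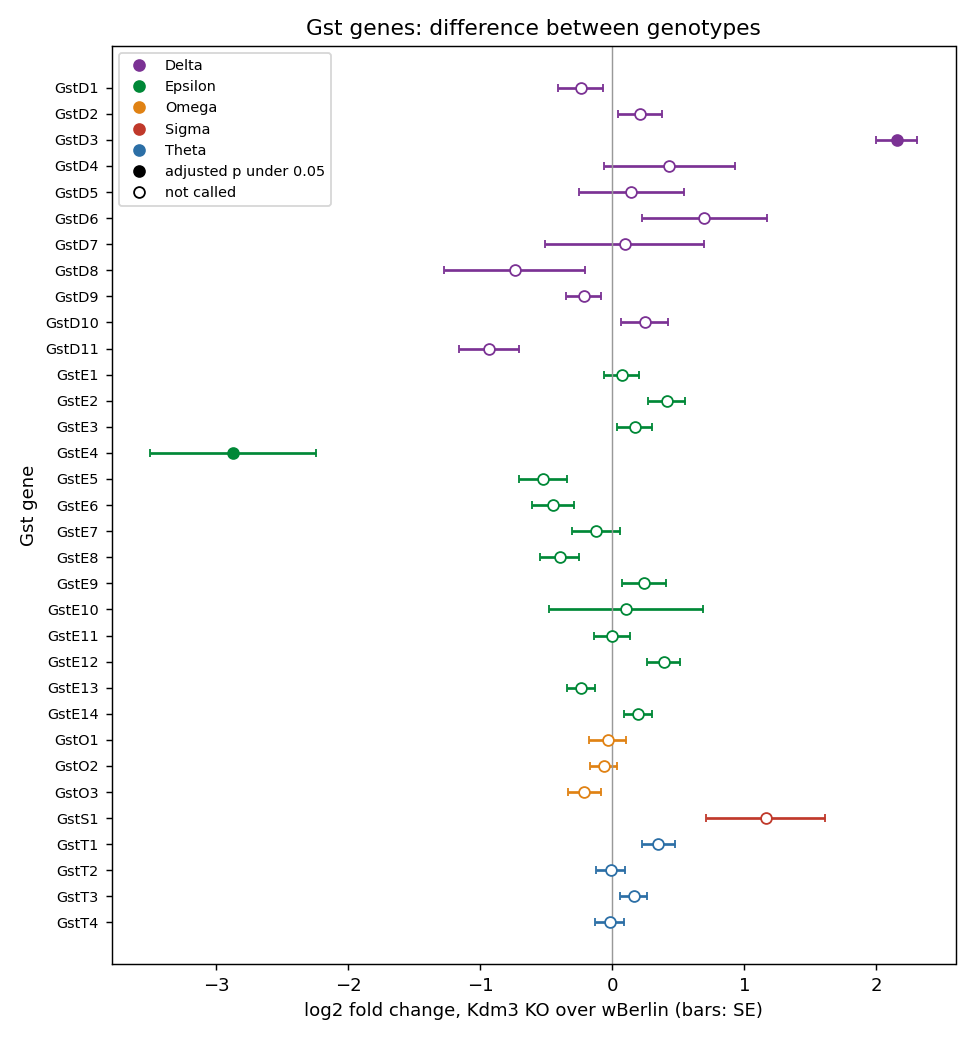
Log2 fold change of Kdm3 KO over wBerlin for the 33 Gst genes by class, with bars for the SE and filled points for an adjusted p under 0.05. GstD3 at 2.15 and GstE4 at −2.87 are filled, GstS1 at 1.16 has a wide bar, and Omega and Theta genes lie between −0.21 and 0.35.

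GstS1 (FBgn0010226, arm 2R, 17093246 to 17099501) is the family's Sigma enzyme, known to conjugate the lipid peroxidation product 4-hydroxynonenal and to be abundant in indirect flight muscle. It was at 134, 543 and 152 CPM in Kdm3 KO replicates 1, 2 and 3, against 118, 123 and 129 CPM in wBerlin replicates 1, 2 and 3. The difference between the groups came largely from Kdm3 KO replicate 2. The log2 fold change was 1.16 (SE 0.45, edgeR adjusted p = 0.257), and without that library it was 0.22 (SE 0.08, adjusted p = 0.189). GstS1 made up 20.1% of the family's summed CPM per kb in Kdm3 KO replicate 2, 4.40% and 5.22% in the other Kdm3 KO libraries and 4.24% to 4.68% in wBerlin.

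Flight muscle genes were high in the same library. The troponin C gene TpnC4 was at 0.795, 87.8 and 1.02 CPM in Kdm3 KO, against 1.47, 2.26 and 2.15 CPM in wBerlin. Act88F, the flight muscle actin, was at 24.2, 1276 and 53.2 CPM in Kdm3 KO, against 23.8, 153 and 247 CPM in wBerlin. The flightin gene fln was at 14.4 CPM in Kdm3 KO replicate 2 and at or below 1.01 CPM in the other libraries. The other 3 genes of the list, Mhc, up and wupA, are used in all muscles, and with them the list summed to 9554, 15008 and 12426 CPM in Kdm3 KO and to 11902, 17667 and 22102 CPM in wBerlin. The summed list was thus highest in wBerlin replicates 2 and 3, where GstS1 was not high. None of the 6 was called or at 0 in any library, and their part in the GstS1 value was not tested.

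Most of the least abundant genes were also highest in Kdm3 KO replicate 2, on few counts. GstD4, GstD5, GstD6, GstD7, GstD8 and GstE10, the 6 genes with group means under 3 CPM, summed to 3.74, 9.49 and 3.51 CPM in Kdm3 KO, against 3.77, 6.28 and 6.54 CPM in wBerlin. All but GstD8 had their highest value of the 6 libraries in Kdm3 KO replicate 2. Among the Kdm3 KO libraries alone that replicate was highest for all 6 genes, and for 40.2% of all tested genes. GstD6, for example, was at 0.716, 1.47 and 0.577 CPM in Kdm3 KO, against 0.431, 0.584 and 0.687 CPM in wBerlin, which is 32 counts at most in a library. Midgut digestive genes were high in the same library (summed level 114 CPM, the 10 genes all detected in every library). Of the 3 Malpighian tubule genes, Uro was high there too, at 7.48 CPM against 0.398 to 0.839 CPM elsewhere, but the other 2 were at their lowest among the Kdm3 KO libraries. That list summed to 152, 141 and 150 CPM in Kdm3 KO, against 150, 135 and 143 CPM in wBerlin. None of the 6 genes was called, and the part of gut tissue in their values was not tested.

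For the more abundant genes Kdm3 KO replicate 2 was more often the low library. It was the lowest of the 3 Kdm3 KO libraries for 21 of the 33 genes (63.6%), against 48.2% of all tested genes. None of the 6 genes under 3 CPM was among these 21. Its TMM factor was 1.10, against 0.984 and 0.942 in Kdm3 KO replicates 1 and 3. All tested genes summed to 909475 CPM in it, against 1016238 and 1061401 CPM in those 2 libraries. These sums follow from the TMM factors by construction and are no separate measure. The part of scaling in the low values was not tested. Leaving GstS1 out, the family summed to 1263, 939 and 1196 CPM in Kdm3 KO, against 1042, 1171 and 1157 CPM in wBerlin, and the genotypes overlapped. The coefficient of variation was larger in Kdm3 KO for 27 of the 33 genes, with a median of 15.8% in Kdm3 KO and 11.2% in wBerlin. It was not compared with that of all tested genes, so it is not shown to be particular to the family.

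**Figure D4:**
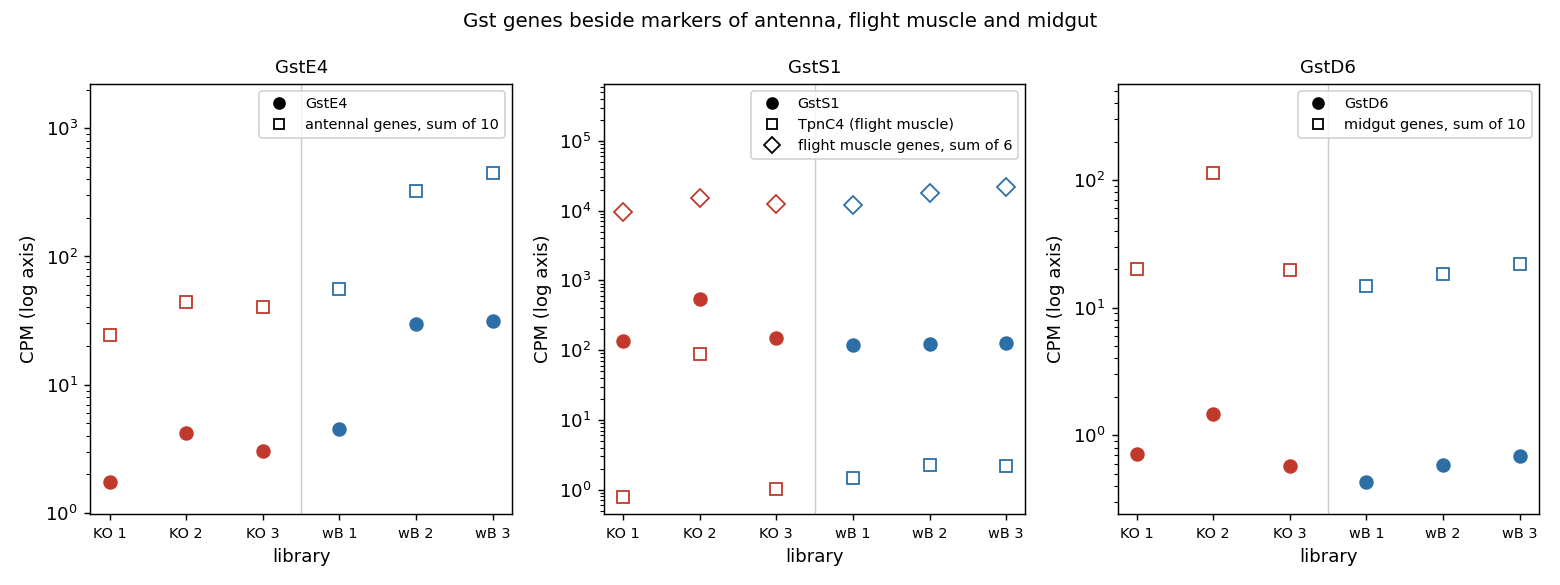
Levels in CPM on a log axis in the 6 libraries, Kdm3 KO (red, left) and wBerlin (blue, right), of GstE4 with the summed antennal list, GstS1 with the summed flight muscle list and with TpnC4, and GstD6 with the summed midgut list. GstE4 is low where the antennal sum is low, wBerlin replicate 1 included, and GstS1 and GstD6 are highest in Kdm3 KO replicate 2, as are TpnC4 and the midgut sum, whereas the flight muscle sum is highest in wBerlin replicate 3.

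The 3 Omega genes lie together on arm 3L (8518885 to 8524866) with se, the gene of an Omega-type enzyme that makes a precursor of the red drosopterin eye pigments and that the symbol rule leaves out. Omega enzymes act mainly as thiol transferases and dehydroascorbate reductases. GstO2 was at 41.1, 33.7 and 38.4 CPM in Kdm3 KO, against 40.5, 41.4 and 36.5 CPM in wBerlin. GstO3 was at 35.7, 25.5 and 31.9 CPM in Kdm3 KO, against 34.1, 36.2 and 37.6 CPM in wBerlin. GstO1 was at 6.40, 5.64 and 6.35 CPM in Kdm3 KO, against 5.75, 6.06 and 7.09 CPM in wBerlin. Libraries of the genotypes overlapped in all 3 genes. Their approximate 95% intervals were 0.830- to 1.10-fold for GstO2, 0.727- to 1.02-fold for GstO3 and 0.803- to 1.18-fold for GstO1. The gene se was at 240.4, 229 and 282 CPM in Kdm3 KO, against 217, 182 and 210.03 CPM in wBerlin, and, although no library overlapped, did not pass the test (log2 fold change 0.30, edgeR adjusted p = 0.243). GstO2 and se share 61 exonic bases on opposite strands.

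Of the Theta genes, GstT1 and GstT2 are neighbours on arm 2R (9605988 to 9608350), and GstT3 and GstT4 lie apart on X. Theta enzymes of mammals act on small halogenated compounds. GstT2 was at 10.1, 9.26 and 10.4 CPM in Kdm3 KO, against 10.2, 9.53 and 10.3 CPM in wBerlin, a fold change of 0.991 with an approximate 95% interval of 0.855 to 1.15. GstT4, the most abundant, was at 133, 104 and 126 CPM in Kdm3 KO, against 127, 118 and 122 CPM in wBerlin, with a fold change of 0.986 and an approximate 95% interval of 0.851 to 1.14. GstT1 was at 29.0, 22.2 and 29.6 CPM in Kdm3 KO, against 21.6, 19.9 and 22.1 CPM in wBerlin. GstT3 was at 17.4, 15.8 and 18.6 CPM in Kdm3 KO, against 15.8, 15.7 and 14.7 CPM in wBerlin. In these last 2 genes the Kdm3 KO libraries were all at or above the highest wBerlin library, by little in replicate 2. GstT1 (log2 fold change 0.35, SE 0.13, edgeR adjusted p = 0.216) was called without Kdm3 KO replicate 2 (0.47, adjusted p = 0.0258), and GstT3 (0.16, SE 0.10, adjusted p = 0.565) in none of 15 alternative fits.

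Apart from GstZ2, the other listed genes of glutathione metabolism that were tested were not called. Of the 5 transferases outside the rule, GstZ2 rose and none fell (20% called, against 3.07% of all tested genes). GstZ2, a Zeta enzyme of the type that isomerises maleylacetoacetate in tyrosine breakdown, was at 68.1, 49.4 and 65.7 CPM in Kdm3 KO, against 35.7, 36.9 and 37.1 CPM in wBerlin (1.67-fold, edgeR adjusted p = 0.0122). It lies on arm 3R at 9456815 to 9460652, close to Kdm3 (9516007 to 9520938), so that linked sequence and loss of Kdm3 cannot be told apart for it. GstZ1, Mgstl and gfzf had log2 fold changes between −0.09 and 0.14. Of the 11 glutathione supply genes 9 were tested. None was called at either an adjusted or an unadjusted p under 0.05 (background 3.07% and 14.6%). They include Gclc and Gclm, the subunits of the rate-limiting ligase of glutathione synthesis, with log2 fold changes of 0.05 and −0.03. Cbs, the gene of the smallest p among them, was at 43.5, 31.9 and 42.9 CPM in Kdm3 KO, against 31.9, 37.6 and 30.5 CPM in wBerlin (edgeR adjusted p = 0.486). The list's median was 0.05, beside 0.04 over all tested genes. The glutathione synthetase genes Gss1 and Gss2 had at most 1 count in a library and were not tested.

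The regulators of CncC signalling and the conjugate exporters were not called either (0 of 5, beside 3.07% of all tested genes). The gene cnc, which encodes CncC, had a log2 fold change of 0.02 and its inhibitor gene Keap1 of 0.09. The partner gene maf-S, which encodes a small Maf protein, was at 56.7, 48.1 and 56.8 CPM in Kdm3 KO, against 42.8, 39.1 and 37.1 CPM in wBerlin. No library overlapped, and its log2 fold change of 0.44 (SE 0.10) fell just short in the test (edgeR adjusted p = 0.0540). It was called in 9 of 15 alternative fits.

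Beside the Gst family (6.06% called), other detoxification enzyme families had a larger share of calls at an adjusted p under 0.05. Over all tested genes that share was 3.07%. Of 80 tested cytochrome P450 (Cyp) genes 10 rose and 2 fell (15%). The insecticide resistance gene Cyp6g1 was at 316, 197 and 287 CPM in Kdm3 KO, against 89.5, 121 and 111 CPM in wBerlin, and rose 2.48-fold. Cyp12d1-p rose 2.82-fold and Cyp12c1 2.12-fold. Of 35 UDP-glycosyltransferase (Ugt) genes 3 rose and 3 fell (17.1%), with Ugt35B1 2.14-fold and Ugt49B1 2.00-fold higher and Ugt35C1 at 0.578 of the wBerlin level. Ugt37A3 was at 23.0, 7.52 and 9.36 CPM in Kdm3 KO, against 1.33, 1.39 and 0.870 CPM in wBerlin, 10.99-fold higher. The median log2 fold change was 0.14 for the Cyp genes and 0.32 for the Ugt genes, beside 0.07 for the Gst genes. At an unadjusted p under 0.05 the families were closer, at 35% of Cyp, 37.1% of Ugt and 33.3% of Gst genes. The groups of libraries did not overlap for 31.25% of Cyp, 42.9% of Ugt and 33.3% of Gst genes. Over all tested genes these 2 shares were 14.6% and 18.7%. The difference between the families was not tested, since members of a family share their libraries and are not replicates.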

How the data were processed

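RNA of adult heads was depleted of ribosomal RNA (Ribo-Zero) and made into libraries with a NEBNext Ultra II kit, per the labels' protocols. The authors deposited raw read counts per gene. The submitters' processing notes name STAR, SAMtools, HTSeq, DESeq2 and the build BDGP6, without settings or strand use. Symbols, positions and exon lengths came from Ensembl release 115 for BDGP6, and 17626 of 17753 gene IDs had a symbol.

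All 6 libraries (19850981 to 28237382 counts) entered one fit in R 4.3.3 with edgeR 4.0.16 (TMM, filterByExpr, glmQLFit and glmQLFTest, two-sided, genotype as the only term), with Benjamini-Hochberg adjustment. The procedure was tested on simulated data. SE is the log2 fold change divided by the square root of F, and intervals span 1.96 SE. Alternatives were DESeq2 1.42.0, limma 3.58.1 voom, 3 scalings, 2 filters, a replicate block and leaving out each library. The fit of 4 libraries was added after the data were seen.

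Members, lists and tests were chosen with earlier results of these data known, although the symbol rule for members used no measured value. By rule, genes were given by library if they were called members, the most abundant or up to 3 with the smallest p of each class, Kdm3, or up to 4 called genes of each list, and called genes within 50 kb of a Gst gene were named. Other genes were named after their values were seen. The marker symbols Lipin and Urm8 did not match.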

Additional observations from a re-analysis of the deposited data

How the results depend on the processing

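GstD3 kept its call and direction in all 15 alternatives, whereas GstE4 kept its direction in 15 and its call in 6. The Gst family had 2 higher and 2 lower calls by DESeq2, 2 and 0 with upper quartile scaling, with total count scaling and with a mean of 5 CPM as filter, and 1 and 0 by limma voom. Over all genes DESeq2 called 514 higher and 402 lower, the 5 CPM filter 473 and 274, upper quartile scaling 212 lower, and the fit with no filter 266 lower. DESeq2 called 22 Cyp and Ugt genes higher, and DESeq2 and the fit with no filter each called 6 neighbours of Gst genes lower. The fit of 4 libraries, which sets aside Kdm3 KO replicate 2 and wBerlin replicate 1, gave 3 higher and 3 lower Gst genes, 606 and 476 over all genes, 20 and 8 Cyp and Ugt genes and 8 lower neighbours. With each library left out in turn, Gst calls ranged over 1 to 3 higher (3 without Kdm3 KO replicate 2) and 0 to 2 lower (2 without wBerlin replicate 1). All-gene calls ranged over 181 (without wBerlin replicate 2) to 574 (without Kdm3 KO replicate 2) higher and 62 (without wBerlin replicate 2) to 467 (without wBerlin replicate 1) lower. Cyp and Ugt calls ranged over 9 to 20 higher and 2 to 9 lower, and lower neighbours over 1 to 9. The family median ranged over −0.0457 to 0.0607 on the log2 scale. The cause of these differences was not tested.

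Of the uncalled genes, GstD4, GstD5, GstD7, GstE1, GstE10, GstE11 and GstT2 changed sign in 2 to 5 alternatives each, and GstO1, GstO2 and GstT4 in 2 each. GstO1 was at −0.153 to 0.0250 over the fits that leave out a library, above 0 without wBerlin replicate 3 (0.00738) and without Kdm3 KO replicate 2 (0.0250). GstO2 was at −0.166 to 0.0141 over these fits (above 0 without Kdm3 KO replicate 2), and at 0.0275 in the fit of 4 libraries. GstT4 was at −0.0901 to 0.0829 (above 0 without Kdm3 KO replicate 2), and at 0.108 with 4 libraries. No scaling moved the median of all genes by over 0.1.

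Same-numbered libraries had correlations of 0.34, 0.25 and −0.05 between their deviations from the group means, so the numbers are not taken as pairs, and not every library correlated best with its own number. With a replicate block the calls were 1 higher and 2 lower in the Gst family, 417 and 362 over all genes, and 7 lower neighbours. Depth limits the 6 genes under 3 CPM, whose libraries held 5 to 57 counts each.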
